A study of Mus musculus with 9 samples.

Results

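The liver genes for coating and emptying lipid droplets and for taking up fat were followed through regeneration. They were *Plin2*, *Plin4*, *Plin5*, *Cidea*, *Cidec*, *G0s2*, *Pnpla2*, *Cd36*, *Vldlr* and *Fabp4*, chosen by name, and all 10 were found among the 43346 genes of the deposited count table. RNA-Seq of whole liver from male mice, 12 weeks old, of the strain C57/BL6 by the sample records and C57BL/6J by the study's methods, gave 9 libraries in 3 groups of 3. The baseline group (vehicle 0 h) held the liver removed at 70% hepatectomy from mice given vehicle, which was normal saline. The vehicle 40 h group held the liver remnant of mice given vehicle, and the NSC 40 h group the remnant of mice given NSC-87877 (NSC), an inhibitor of the phosphatases SHP2 and SHP1, by i.p. injection of 7.5 mg/kg every dose, with 2 doses daily. All mice carried wild-type alleles and all were operated on, so no group came from mice without surgery. The baseline was taken out at the operation itself and stands for liver before regeneration. By the study's methods it came from the median lobes and the left lateral lobe, so the remnants at 40 h were other lobes. Dosing started 12 h before surgery by the sample records and 1 day before by the study's methods. Baseline liver from NSC-treated mice is not part of these libraries as analysed here, and the same 3 vehicle baselines served both 40 h groups. The study sequenced these livers to ask which transcripts change when SHP2 is inhibited during regeneration.

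Hepatocytes keep triglyceride in droplets, a core of neutral lipid under a coat of perilipins. Lipases at the droplet surface release fatty acids, CIDE proteins fuse droplets into larger ones, and receptors and transporters at the cell surface bring fat in. After partial hepatectomy the remnant is known to load itself transiently with fat that arrives from adipose tissue, and this fat serves as fuel and membrane material for dividing hepatocytes.

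Each library held between 23997363 and 42887589 counts on genes, so that 3 counts, the floor used here, stood at 0.07 to 0.125 CPM, a count scaled to a common library total. Values below are CPM scaled by trimmed mean of M values (TMM) factors unless another unit is named. The livers differed in ways the groups do not explain. Baseline replicate 2 had 81.0 CPM of the clock output gene *Dbp*, against 0.411 and 1.29 in the other baselines and 0.554 to 1.32 in the 6 livers at 40 h, and it had 1.65 CPM of the clock gene *Arntl* against 33.8 and 35.5. Both clock genes were picked after their values were seen. NSC replicate 1 stood apart in the studied genes themselves, being the highest NSC liver in all 10 and the highest of the 6 livers at 40 h in 7, which held for 37% and 21% of the 15024 genes tested. Hepatocyte markers were high in every library, their summed level being 121712 to 126638 CPM at baseline, 91742 to 129340 in vehicle and 95015 to 112779 in NSC remnants. Of the 8 hepatocyte markers 3 nevertheless fell in vehicle (*Ass1*, *Cyp2e1* and *Tat*) and 4 in NSC (these and *Cps1*) by the test used below, when 11% and 16.5% of all genes were lower, 0 rose, and their median log2 fold changes were -0.67 and -0.88. The part of this in the falls of the lipid genes below was not tested. The defining adipocyte markers were at or near 0, with *Lep* at 0 counts in all 9 libraries, *Plin1* at 0 in 8 and *Adipoq* at no more than 0.13 CPM.

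At 40 h, *Plin4*, *Plin5*, *Pnpla2* and *Vldlr* were lower than at baseline and *Fabp4* was higher, in vehicle and in NSC remnants alike. *Plin4* moved most of the 10, to 0.138 times its baseline in vehicle and 0.103 times in NSC. *Plin2*, the main droplet coat of hepatocytes, did not pass the test in any comparison. In vehicle remnants 5 of the 10 genes passed, meaning an adjusted p below 0.05 (quasi-likelihood test of edgeR, Benjamini-Hochberg adjustment over all genes tested), 1 higher and 4 lower, when 23.7% of all genes passed. In NSC remnants again 5 of 10 passed, 1 higher and 4 lower, when 34.7% of all genes passed. The median log2 fold change of the 10 genes was -0.54 in vehicle and 0.15 in NSC remnants, beside 0.01 for all genes in each. With a log2 fold change over 1.5 asked as well, *Plin4* and *Vldlr* remained in vehicle (7.22% of all genes), joined by *Fabp4* in NSC (8.13%). Vehicle remnants and baselines did not overlap for the same 5 genes, 1 higher (24.2% of all genes) and 4 lower (22%), and NSC remnants and baselines did not overlap for 2 higher (24%), *Fabp4* and *Cd36*, and 4 lower (23.1%). At an unadjusted p below 0.05 there were 5 of 10 in vehicle (37% of all genes) and 5 in NSC (45.2%). In whole liver, fewer cells of a type and less RNA per cell cannot be told apart. Remnants also differed from baselines in lobe, in time since surgery and in the doses given after surgery. What each of these added to the changes was not tested.

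Between NSC and vehicle remnants none of the 10 genes passed in edgeR's test, when 0.0399% of all genes did, and 0 passed with the fold threshold as well (0.02%). At an unadjusted p under 0.05 there were 2, *Cd36* and *Pnpla2*, beside 19.5% of all genes, and DESeq2 called 0 of the 10 (4.44% of all genes). These same 2 genes had groups that did not overlap in TMM-scaled CPM, *Cd36* higher and *Pnpla2* lower with NSC, which held for 10.3% and 12.2% of all genes in those directions, but the groups of both overlapped in the deposited FPKM. Without NSC replicate 1, 2 of the 10 genes passed, when 6.46% of all genes did, *Plin4* at a log2 fold change of -1.41 (adjusted p = 0.0168) and *Vldlr* at -1.47 (adjusted p = 0.0459).

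**Figure D1:**
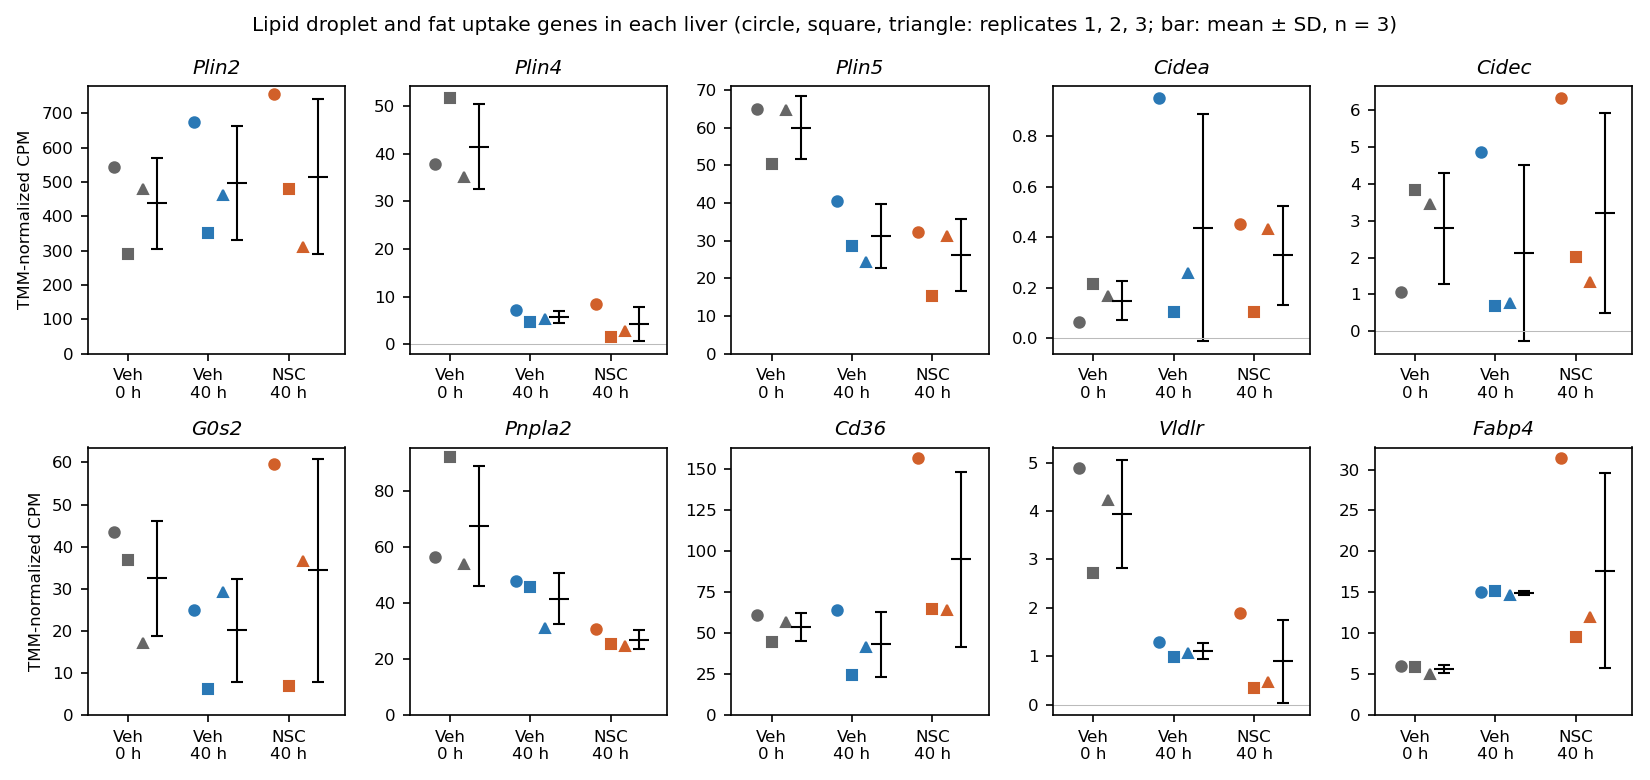
TMM-normalized CPM of each gene (vertical axis, starting at or just below 0, a scale of its own per panel) in the 9 livers. Circles, squares and triangles are replicates 1, 2 and 3, and the bars beside them are mean ± SD (n = 3). Plin4, Plin5, Pnpla2 and Vldlr lie lower in all 6 livers at 40 h than in all 3 baselines and Fabp4 lies higher, while the NSC replicate 1 circle is the highest NSC point in every panel.

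**Figure D2:**
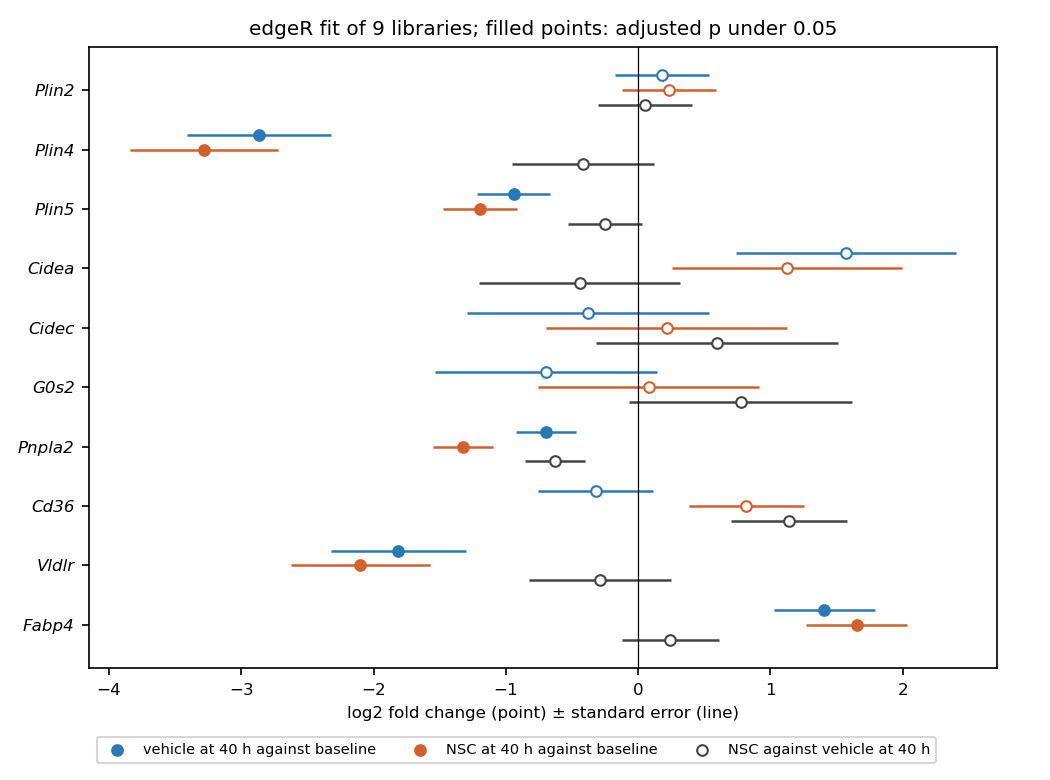
Log2 fold change (horizontal axis) of each gene in the 3 comparisons, with lines of 1 standard error to each side and filled points for an adjusted p under 0.05. The 5 genes filled in vehicle against baseline are filled in NSC against baseline too, and no point is filled between NSC and vehicle.

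Among the perilipins, which coat droplets and gate the access of lipases, *Plin2* stayed abundant while *Plin4* and *Plin5* fell. The letters 5′ of the start sites of these 3 genes are shown because the neighbours *Plin4* and *Plin5* on chromosome 17 fell while *Plin2* did not pass the test. They run up to the base before the annotated gene, in RefSeq on GRCm38.p6, all on the minus strand and written 5′ to 3′: *Plin2* at chr4:86670061-86670309, *Plin4* at chr17:56109804-56110032 and *Plin5* at chr17:56117597-56117798. Capitals mark AGGTCA, read on either strand, the core letters that nuclear receptors such as the PPARs are known to bind.
Plin2: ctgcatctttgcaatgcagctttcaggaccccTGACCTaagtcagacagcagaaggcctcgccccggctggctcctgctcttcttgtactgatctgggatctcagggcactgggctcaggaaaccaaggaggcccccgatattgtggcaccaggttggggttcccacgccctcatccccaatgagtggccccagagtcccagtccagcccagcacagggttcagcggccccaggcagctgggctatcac
Plin4: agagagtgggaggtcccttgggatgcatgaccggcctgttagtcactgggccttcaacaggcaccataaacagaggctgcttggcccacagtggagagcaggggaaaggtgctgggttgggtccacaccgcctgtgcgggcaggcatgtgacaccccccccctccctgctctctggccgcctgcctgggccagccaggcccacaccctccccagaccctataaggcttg
Plin5: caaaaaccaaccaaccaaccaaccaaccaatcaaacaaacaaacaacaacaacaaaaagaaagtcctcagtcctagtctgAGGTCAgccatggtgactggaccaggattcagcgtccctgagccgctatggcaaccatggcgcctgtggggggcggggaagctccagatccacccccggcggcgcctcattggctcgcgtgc
In the window of 250 bases before to 50 after a start site, AGGTCA occurred in *Plin2*, *Plin5* and *Cd36* of the 8 genes with an entry, and in 16.3% of all 32851 promoters. The paired form AGGTCANAGGTCA, read on both strands, occurred in 0 of the 8 and in 0.0396% of all, and the looser AGGNCANAGGNCA in 0 of the 8 and 0.381% of all. CACGTG, the letters that clock factors and MLXIPL-like factors are known to use, lay across the *Plin2* start site in its window alone among the 8 and in 7.15% of all promoters, and TATAAA in 0 of the 8 and 13.6% of all. These matches describe letters, not bound sites.

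*Plin2* (chromosome 4, 86648386 to 86670060 in the deposited table, minus strand) codes for the perilipin that covers most hepatocyte droplets, and its protein is known to persist only while bound to lipid. It was at 545, 289 and 480 CPM in baseline replicates 1, 2 and 3, at 676, 352 and 463 in vehicle and at 756, 480 and 310 in NSC remnants. The groups overlapped widely, with replicate 1 the highest in each of them. Against baseline the log2 fold change was 0.18 (SE 0.36, adjusted p = 0.755) in vehicle and 0.24 (SE 0.36, adjusted p = 0.639) in NSC remnants. From vehicle to NSC it was 0.05 (adjusted p = 0.951), with an unadjusted 95% interval of -0.74 to 0.84 from 3 livers a group. Changes within that interval were not excluded, and it is not a limit beyond which a change would have passed.

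*Plin4* (chromosome 17, 56100591 to 56109803, minus strand) codes for a perilipin with a long repeat that lies on small droplets, best known from adipose tissue and muscle. Its level was 37.8, 51.7 and 35.1 CPM at baseline, 7.13, 4.69 and 5.28 in vehicle and 8.37, 1.56 and 2.78 in NSC remnants. Every remnant lay far below every baseline, and the NSC livers spread over a range that took in the vehicle ones. *Plin4* fell by a log2 fold change of -2.86 (SE 0.54, adjusted p = 0.00767) in vehicle and -3.28 (SE 0.56, adjusted p = 0.00322) in NSC. The fall passed in all 17 alternative fits of both comparisons, at -3.06 to -2.67 in vehicle and -4.27 to -2.88 in NSC. NSC against vehicle gave -0.42 (SE 0.53, adjusted p = 0.699), with an interval of -1.65 to 0.81, and without NSC replicate 1, at 8.37 the highest of the 6 remnants, it was -1.41 (adjusted p = 0.0168).

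*Plin5* (chromosome 17, 56111601 to 56117596, minus strand), the next gene beside *Plin4*, codes for the perilipin that ties droplets to mitochondria and restrains lipolysis. It was at 65.0, 50.3 and 64.7 CPM at baseline, at 40.7, 28.6 and 24.4 in vehicle and at 32.2, 15.3 and 31.3 in NSC remnants. No remnant reached the lowest baseline. Its log2 fold change was -0.94 (SE 0.28, adjusted p = 0.0326) in vehicle and -1.19 (SE 0.28, adjusted p = 0.00810) in NSC, and -0.25 (SE 0.28, adjusted p = 0.641, interval -0.87 to 0.36) between them. The vehicle call was lost at -0.79 to -0.88 without baseline replicate 1 or 3 or vehicle replicate 2 or 3 (adjusted p = 0.0921, 0.0961, 0.0981 and 0.116). In those fits 14.8% to 18.6% of all genes passed. The call was also lost with library size only (-0.91, adjusted p = 0.0642) and with all genes of at least 1 count (-0.94, adjusted p = 0.0606). With a correction for GC content the NSC fall was -0.79 and just missed the threshold (adjusted p = 0.0513).

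Levels per length (FPKM, which scales fragments by gene length and library total) showed how perilipin RNA was divided among the family. The protein on droplets was not measured here. The summed perilipin level was 173 ± 36.7 FPKM (SD, n = 3) at baseline, 170 ± 62.9 in vehicle and 185 ± 73.4 in NSC remnants. Of that sum *Plin2* held 68.6% ± 7.29 (SD, n = 3) at baseline, 81.9% ± 4.03 in vehicle and 83.6% ± 7.34 in NSC. *Plin5* held 16.2% ± 1.38 at baseline, 8.86% ± 1.62 in vehicle and 7.93% ± 4.28 in NSC. *Plin4* went from 4.29% ± 1.99 to 0.583% ± 0.0414 and 0.393% ± 0.215. The highest share of *Plin4* in any remnant, 0.627%, was below its lowest baseline share, 3.14%, and the highest share of *Plin5*, 12.8%, was below its lowest, 15.0%. *Plin3*, a perilipin found in most cells, held 10.9% ± 4.03, 8.65% ± 2.78 and 8.10% ± 3.92, and *Plin1*, the adipocyte perilipin, was near 0. These shares of RNA are a description without a test.

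**Figure D3:**
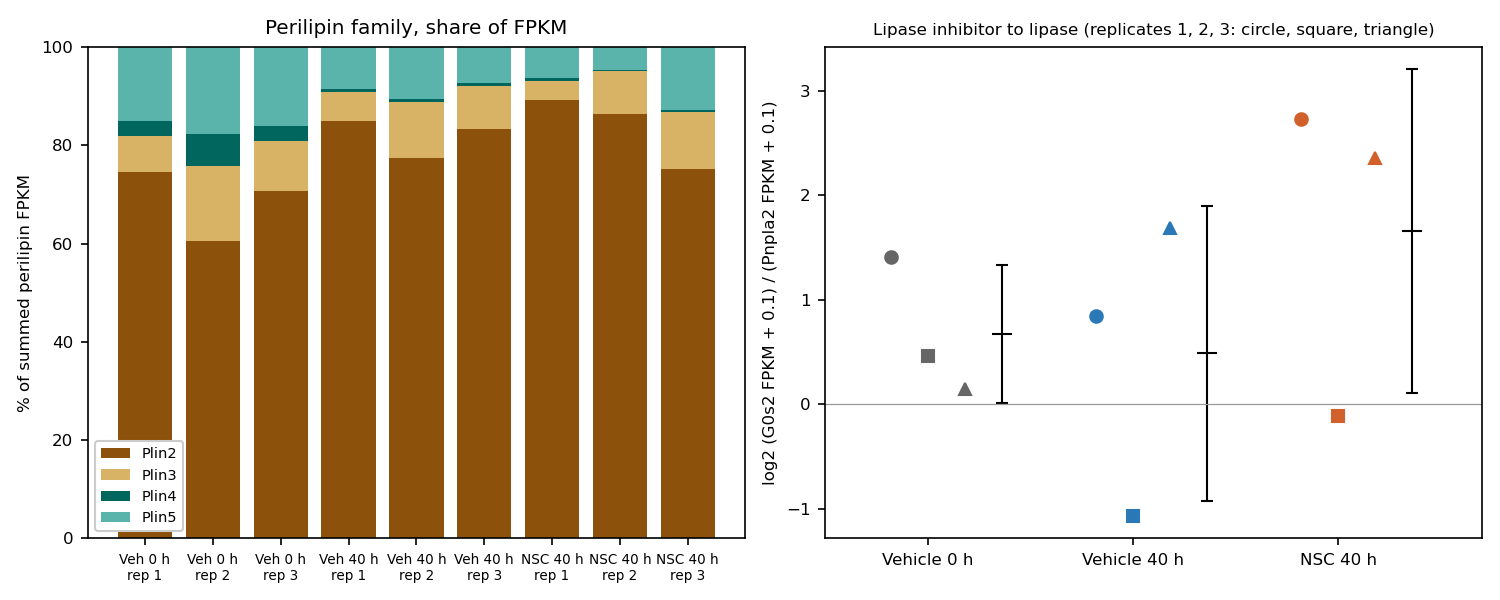
Left, the share of each perilipin in the summed perilipin FPKM of each liver, in percent, with 1 stacked bar per liver. Right, the log2 ratio of G0s2 to Pnpla2 (each FPKM + 0.1) in each liver, with mean ± SD beside it (n = 3). Plin4 and Plin5 take smaller shares in all 6 remnants than in the 3 baselines, and the ratios of the 3 groups overlap.

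The CIDE genes *Cidea* and *Cidec*, whose proteins join droplets at contact sites so that lipid flows into the larger one, were near the floor or widely spread, and neither passed in any comparison. *Cidea* (chromosome 18, 67343564 to 67367794, plus strand) had 2, 7 and 5 counts at baseline, 38, 4 and 7 in vehicle and 15, 3 and 11 in NSC remnants. Vehicle replicate 1 alone, at 0.951 CPM, was more than 3 times the other vehicle livers (0.104 and 0.258). The log2 fold change was 1.57 (SE 0.83, adjusted p = 0.193) in vehicle and 1.13 (SE 0.87, adjusted p = 0.337) in NSC against baseline, and -0.44 (SE 0.76, adjusted p = 0.780) between them. At such counts these values are loosely fixed, and without vehicle replicate 1 the difference between NSC and vehicle was 0.89.

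*Cidec* (chromosome 6, 113424634 to 113435760, minus strand), which is known to build large droplets in fatty liver, was at 1.07, 3.85 and 3.46 CPM at baseline. It was at 4.88, 0.700 and 0.775 CPM in vehicle and at 6.33, 2.00 and 1.33 in NSC remnants. The groups overlapped, and replicate 1 was the lowest baseline but the highest liver of each 40 h group. *Cidec* had a log2 fold change of -0.38 (SE 0.91, adjusted p = 0.802) in vehicle, 0.22 (SE 0.91, adjusted p = 0.876) in NSC and 0.60 (SE 0.91, adjusted p = 0.752) between them, with an interval of -1.52 to 2.71 for the last. Per length, *Cidea* and *Cidec* were minor beside *Cideb*, the hepatocyte CIDE gene that also serves VLDL loading, which held 99.1% ± 0.477, 98.9% ± 1.19 and 98.2% ± 1.78 (SD, n = 3) of the summed CIDE FPKM.

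Of the lipase and its inhibitor, the lipase fell and the inhibitor did not pass. *Pnpla2* (chromosome 7, 141455198 to 141460743, plus strand) codes for adipose triglyceride lipase, which makes the first cut in stored triglyceride. It was at 56.5, 92.1 and 53.9 CPM at baseline, at 48.0, 45.6 and 31.2 in vehicle and at 30.8, 25.5 and 24.5 in NSC remnants. On this scale the 3 groups stood in steps without overlap, the lowest vehicle liver being only just above the highest NSC liver. In FPKM that last step was gone, with 11.3 in NSC replicate 1 above 9.99 in vehicle replicate 3. The log2 fold change was -0.70 (SE 0.23, adjusted p = 0.0426) in vehicle and -1.32 (SE 0.23, adjusted p = 0.00137) in NSC. Between NSC and vehicle it was -0.63 (SE 0.23, unadjusted p = 0.0174, adjusted p = 0.173), with an interval of -1.12 to -0.13 that takes no account of the number of genes tested.

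Baseline replicate 2, the liver that stood apart in clock genes, had the highest *Pnpla2* of all 9. Without it the vehicle fall was -0.41 (adjusted p = 0.169), and the call was also lost without vehicle replicate 1, 2 or 3 or NSC replicate 2 or 3 (adjusted p = 0.0570, 0.0709, 0.153, 0.0596 and 0.0538). Library size only (-0.68, adjusted p = 0.0556) and the fit of the 2 groups compared (-0.69, adjusted p = 0.0635) lost the vehicle call too. The NSC fall passed in all 17 alternatives, at -1.46 to -1.01. The difference between NSC and vehicle passed in none of 17 (adjusted p = 0.0888 to 0.653), and with the GC correction it was -0.28. The letters before the *Pnpla2* start (RefSeq, GRCm38.p6, chr7:141454938-141455187, plus strand) are shown as those of the lipase gene that fell, and held none of the motifs searched.
Pnpla2: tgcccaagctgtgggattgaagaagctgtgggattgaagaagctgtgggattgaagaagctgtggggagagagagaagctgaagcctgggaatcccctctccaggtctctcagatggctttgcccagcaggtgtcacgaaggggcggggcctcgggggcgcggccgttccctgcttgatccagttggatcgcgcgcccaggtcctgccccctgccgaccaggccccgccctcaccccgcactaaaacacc

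*G0s2* (chromosome 1, 193272161 to 193273217, minus strand) codes for a small protein that binds adipose triglyceride lipase and blocks it. It was at 43.6, 36.7 and 17.2 CPM at baseline, at 24.9, 6.22 and 29.1 in vehicle and at 59.6, 6.79 and 36.6 in NSC remnants. Replicate 2 was low in both 40 h groups, and the high and low NSC livers differed 8.78-fold. The log2 fold change was -0.70 (SE 0.84, adjusted p = 0.600) in vehicle, 0.08 (SE 0.84, adjusted p = 0.952) in NSC and 0.78 (SE 0.84, adjusted p = 0.642, interval -1.21 to 2.76) between them. The whole gene, 1057 bases, lies inside the *Lamb3* locus on the opposite strand, and the strand setting of the counting is not given in the sources used here, although the library kit kept strand. *Lamb3* had 80 to 422 counts per library.

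The ratio of inhibitor to lipase was taken in each liver as log2 of *G0s2* over *Pnpla2* in FPKM + 0.1. It was 1.41, 0.47 and 0.14 at baseline, 0.84, -1.07 and 1.69 in vehicle and 2.73, -0.11 and 2.36 in NSC remnants. In 2 of 3 NSC livers the ratio was above that of every other liver, while the other NSC liver was below all baselines. The mean difference was -0.19 in vehicle against baseline (two-sided exact permutation p = 1.0), 0.98 in NSC against baseline (exact p = 0.4) and 1.17 in NSC against vehicle (exact p = 0.4), where 3 livers against 3 cannot go below p = 0.1.

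Of the uptake genes, *Vldlr* fell and *Fabp4* rose, and *Cd36* passed only in NSC remnants and only with a replicate block. *Vldlr* (chromosome 19, 27216484 to 27254231, plus strand) codes for a receptor that takes up triglyceride-rich lipoproteins and is low in normal liver. It was at 4.90, 2.72 and 4.22 CPM at baseline, at 1.30, 0.985 and 1.07 in vehicle and at 1.89, 0.340 and 0.470 in NSC remnants. All remnants were below all baselines. The fall of *Vldlr* was -1.81 on the log2 scale (SE 0.51, adjusted p = 0.0247) in vehicle and -2.10 (SE 0.52, adjusted p = 0.00978) in NSC, and -0.29 (SE 0.53, adjusted p = 0.800, interval -1.46 to 0.88) between them. The vehicle call was lost at -1.93 to -1.63 without baseline replicate 1 or 3 or any of the 3 vehicle livers (adjusted p = 0.0638 to 0.0845), and the NSC call passed in all 17 alternatives. Without NSC replicate 1 the NSC level was lower than that of vehicle, at a log2 difference of -1.47 (adjusted p = 0.0459). The letters before its outermost start (RefSeq, GRCm38.p6, chr19:27216234-27216483, plus strand) are shown as those of the uptake receptor that fell, and held none of the motifs searched.
Vldlr: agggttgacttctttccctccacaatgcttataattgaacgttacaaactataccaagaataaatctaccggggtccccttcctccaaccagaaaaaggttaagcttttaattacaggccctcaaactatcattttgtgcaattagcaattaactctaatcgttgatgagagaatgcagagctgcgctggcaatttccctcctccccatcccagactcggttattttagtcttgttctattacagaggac

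*Fabp4* (chromosome 3, 10204088 to 10208576, minus strand) codes for the fatty acid carrier of adipocytes, capillary endothelium and macrophages. It was at 6.0, 5.86 and 5.02 CPM at baseline, at 15.0, 15.1 and 14.6 in vehicle and at 31.4, 9.58 and 12.0 in NSC remnants. The vehicle livers were within 1.04-fold of each other and every remnant was above every baseline, whereas NSC replicate 1 stood at more than 2 times any other liver. The rise of *Fabp4* was 1.41 on the log2 scale (SE 0.38, adjusted p = 0.0251) in vehicle and 1.65 (SE 0.38, adjusted p = 0.00893) in NSC, and 0.24 (SE 0.37, adjusted p = 0.746, interval -0.58 to 1.07) between them. Without NSC replicate 1 the NSC rise was 0.94 (adjusted p = 0.00137). The vehicle call was lost at 1.34 to 1.45 without any 1 of the 6 baseline and vehicle livers (adjusted p = 0.0586 to 0.0883). It was also lost with all genes of at least 1 count (1.41, adjusted p = 0.0825). RefSeq promoter letters were not given for *Fabp4*.

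Markers of the cells that are known to carry *Fabp4* were read beside it. The summed level of 12 endothelial markers was 229 to 244 CPM at baseline, 152 to 236 in vehicle and 163 to 289 in NSC remnants, with 1 marker higher (12.7% of all genes) and 2 lower (11%) in vehicle and 1 lower in NSC (16.5%) by the test. The summed level of 8 macrophage markers was 129 to 185, 109 to 204 and 206 to 347 CPM, with 2 higher in vehicle (12.7% of all genes) and 4 in NSC (18.2%). NSC replicate 1, the highest in *Fabp4* and *Cd36*, was also the highest NSC liver in both sums (289 and 347 CPM). The 10 adipocyte markers summed to 2217 to 4104 CPM at baseline, 102 to 260 in vehicle and 124 to 776 in NSC, nearly all of it *Car3*, which hepatocytes also express and which was picked out after its values were seen. Without *Car3* the sums were 18.5 to 30.7, 10.7 to 18.6 and 9.55 to 10.8 CPM, most of it *Lipe*, a lipase gene described below that hepatocytes also express (group means of 16.5, 11.6 and 6.98 CPM), and the adipokine gene *Cfd* was at 1.07 to 3.43, 0.258 to 0.626 and 0.0391 to 0.420 CPM. Of the 4 adipocyte markers that were tested, 3 were lower in vehicle (11% of all genes) and 4 in NSC (16.5%), and 0 were higher. The part of endothelial cells and macrophages in the *Fabp4* and *Cd36* values, and of adipocytes in the *Plin4* values, was not tested.

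*Cd36* (chromosome 5, 17781690 to 17888959, minus strand) codes for the fatty acid translocase, which hepatocytes, endothelium and macrophages all carry and which also takes up oxidized lipoproteins. It was at 60.8, 44.4 and 56.8 CPM at baseline, at 63.9, 24.3 and 41.4 in vehicle and at 157, 64.7 and 64.1 in NSC remnants. The 3 NSC livers were above the other 6 on this scale, and NSC replicate 1 was far above the rest. In FPKM the NSC and vehicle livers overlapped, with 16.8 in NSC replicate 2 and 17.2 in vehicle replicate 1. The log2 fold change was -0.32 (SE 0.43, adjusted p = 0.641) in vehicle against baseline and 0.82 (SE 0.44, adjusted p = 0.181) in NSC against baseline. With the replicate number as a block the latter was 0.69 and passed (adjusted p = 0.0327). Between NSC and vehicle it was 1.14 (SE 0.44, unadjusted p = 0.0308, adjusted p = 0.213), with an interval of 0.13 to 2.14, and without NSC replicate 1 it was 0.57 (adjusted p = 0.335). With the GC correction the values were 0.17 against baseline (adjusted p = 0.781) and 0.75 against vehicle (adjusted p = 0.551).

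The order of the 10 genes by level per length shifted between baseline and 40 h. At baseline *Plin2* led with 120 ± 36.4 FPKM (SD, n = 3), followed by *G0s2* at 35.9 ± 15.0, *Plin5* at 27.7 ± 3.92, *Pnpla2* at 21.6 ± 6.79, *Cd36* at 13.3 ± 2.09 and *Plin4* at 6.94 ± 1.48. Below them came *Cidec* at 1.46 ± 0.785 FPKM, *Fabp4* at 1.21 ± 0.108, *Vldlr* at 0.378 ± 0.106 and *Cidea* at 0.122 ± 0.0639. Neighbours overlapped between *G0s2* and *Plin5*, between *Plin5* and *Pnpla2*, and between *Cidec* and *Fabp4*, and no others did. In vehicle remnants *Fabp4*, at 3.24 ± 0.262 FPKM, had passed *Plin4*, at 0.973 ± 0.296, without overlap. In NSC remnants *Cd36*, at 26.1 ± 15.6 FPKM, ranked above *Plin5*, at 13.5 ± 5.23, and *Pnpla2*, at 9.51 ± 1.51, although the lowest *Cd36* value (16.8) overlapped the highest of *Plin5* (17.0).

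Spread between livers of a group differed greatly among the 10 genes. The within-group SD of log2 CPM was 1.25 for *G0s2* and 1.24 for *Cidec*, which 0.745% and 0.792% of all genes tested exceeded, against a median of 0.278 for all genes. It was 0.994 for *Cidea*, 0.754 for *Vldlr*, 0.740 for *Plin4* and 0.603 for *Cd36*. *Pnpla2*, at 0.331, and *Plin5*, at 0.430, were the tightest. Vehicle replicate 1 was the highest vehicle remnant in 8 of the 10 genes, as in 28% of all genes, the exceptions being *G0s2* and *Fabp4*. Baseline replicate 2 was the lowest baseline in *Plin2*, *Plin5*, *Cd36* and *Vldlr* and the highest in *Plin4*, *Pnpla2*, *Cidea* and *Cidec*. The part of the clock gene values of that liver in these levels was not tested.

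**Figure D4:**
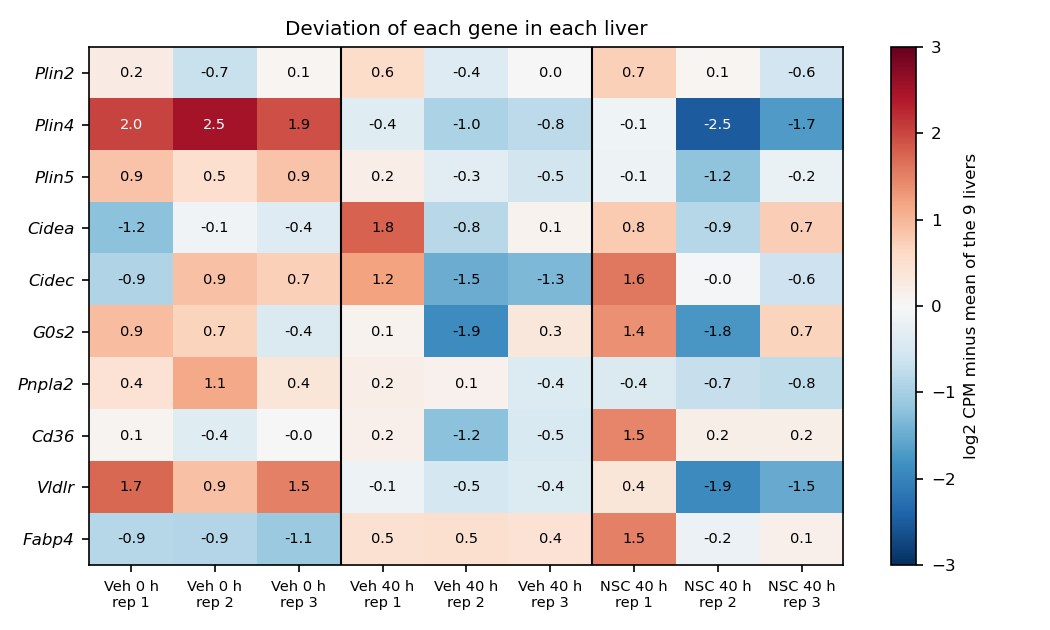
Heat map of log2 CPM of each gene (rows) in each liver (columns) minus its mean over the 9 livers, printed in each cell, with red for higher and blue for lower. The baseline columns are red for Plin4, Plin5, Pnpla2 (with baseline replicate 2 the highest at 1.1) and Vldlr and blue for Fabp4, and the column of NSC replicate 1 holds the highest NSC value in all 10 genes.

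Genes that act beside these 10 were read from 7 lists written from general knowledge, 95 genes tested in all. In vehicle remnants 35 of the 95 passed (36.8%), 5 higher and 30 lower, with a median log2 fold change of -0.37, and in NSC remnants 39 passed (41.1%), 6 higher and 33 lower, with a median of -0.40. For all genes tested, 12.7% were higher and 11% lower in vehicle and 18.2% and 16.5% in NSC. Between NSC and vehicle 0 of the 95 passed in edgeR's test, 22 had an unadjusted p under 0.05 (19.5% of all genes), DESeq2 called 8 (4.44%) and edgeR without NSC replicate 1 called 10 (6.46%). Medians below 0 were shared by the hepatocyte markers given above.

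Of 13 genes for droplet coats and biogenesis, 4 fell in vehicle remnants, and 4 fell and 1 rose in NSC. With 1 library left out the NSC count ran from 1 (without baseline replicate 3) to 6, and was 2 without baseline replicate 2 or NSC replicate 2 and 3 without NSC replicate 1. Over all genes the share passing in NSC was 23.4% without baseline replicate 3 and at most 33.9% with any library left out. *Fitm1* and *Fitm2*, which part new droplets from the endoplasmic reticulum, fell in both, *Fitm1* at a log2 fold change of -1.67 (SE 0.29, adjusted p = 0.00273) in vehicle and -1.31 (SE 0.29, adjusted p = 0.00593) in NSC. *Fitm1* was at 27.0, 42.9 and 41.0 CPM at baseline, at 15.0, 9.67 and 10.003 in vehicle and at 10.6, 12.4 and 21.7 in NSC remnants, without overlap. *Fitm2* was at -0.71 in vehicle (adjusted p = 0.00829) and -0.49 in NSC (adjusted p = 0.0316), and the NSC call was lost with library size only (-0.35, adjusted p = 0.170), in the fit of 2 groups (adjusted p = 0.0528) and without any 1 of the 3 baselines or NSC replicate 2 or 3 (adjusted p = 0.0635 to 0.124). *Hsd17b11*, a droplet enzyme, fell in vehicle (-0.80, adjusted p = 0.00304) and was at -0.26 in NSC (adjusted p = 0.191). *Rab18*, a droplet GTPase, rose in NSC (0.56, adjusted p = 0.0136), but its value with the GC correction was -0.021, and the call was lost without baseline replicate 3 or NSC replicate 2 (adjusted p = 0.0619 and 0.0505).

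Of 14 triglyceride synthesis genes, 6 fell and 0 rose in each comparison with baseline, and the list medians were -0.52 and -0.48. Without vehicle replicate 3 the vehicle count was 3, when 16.3% of all genes passed. *Gpat4* and *Gpam* attach the first acyl chain to glycerol phosphate, *Lpin2* removes the phosphate and *Dgat2* adds the last chain. *Lpin2* was at 694, 626 and 516 CPM at baseline, at 219, 223 and 138 in vehicle and at 224, 146 and 121 in NSC remnants (log2 fold changes -1.66 and -1.90, adjusted p = 0.00101 and 0.000318). *Dgat2* fell too (-1.03 in vehicle and -1.45 in NSC on the log2 scale, adjusted p = 0.00325 and 0.00035), as did *Gpat4* (-0.95 and -1.13, adjusted p = 0.000962 and 0.000257). *Lpin1*, picked after its values were seen, changed most in the list (-3.40 and -4.54), and baseline replicate 2, the liver with high *Dbp*, held 1047 CPM of it against 186 and 101 in the other baselines.

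Of 11 lipolysis genes other than *Pnpla2* and *G0s2*, 5 fell in vehicle remnants and 3 fell and 1 rose in NSC. Without baseline replicate 1 the vehicle count was 3, when 15.2% of all genes passed. *Ces1f* and *Ces1d*, carboxylesterases that hydrolyse stored triglyceride in hepatocytes, fell in both, *Ces1f* at log2 fold changes of -1.68 and -1.36 (adjusted p = 0.000473 and 0.000971) and *Ces1d* at -1.73 and -1.17 (adjusted p = 0.000964 and 0.00497). *Lipe*, hormone-sensitive lipase, was at 11.8, 20.4 and 17.2 CPM at baseline, at 11.2, 15.0 and 8.42 in vehicle and at 7.59, 6.62 and 6.73 in NSC remnants, and passed only in NSC (-1.24, adjusted p = 0.0024). Its difference between NSC and vehicle was -0.73 (adjusted p = 0.146).

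Of 19 other uptake genes, 1 rose and 5 fell in vehicle remnants and 3 rose and 8 fell in NSC. With the GC correction 6 passed in all in NSC, when 30.4% of all genes did. *Acsl1*, which activates fatty acids to acyl-CoA, fell in both (log2 fold changes -1.55 and -1.38, adjusted p = 0.000813 and 0.001). *Slc27a5*, the fatty acid and bile acid acyl-CoA synthetase of liver, was likewise lower (-0.96 and -1.21, adjusted p = 0.00559 and 0.00113). The hepatic lipase gene *Lipc* fell as well (-1.23 and -1.22, adjusted p = 0.00206 and 0.00144).

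On the export side, of 10 VLDL genes 4 rose and 2 fell in vehicle remnants, and 1 rose and 2 fell in NSC, with list medians of 0.05 and -0.05. The 6 vehicle calls were 2 without baseline replicate 1 or 2 or vehicle replicate 1, 3 without vehicle replicate 2 and at most 7 with any library left out. In the fits that gave 2 calls 15.2%, 18.9% and 15.4% of all genes passed, and in the fit without vehicle replicate 2 18.6% did. *Apoa4*, an apolipoprotein of triglyceride-rich particles, was at 91.1, 133 and 86.6 CPM at baseline, at 5733, 1609 and 2345 in vehicle and at 2433, 440 and 516 in NSC remnants. It rose by 4.96 (SE 0.88, adjusted p = 0.00642) in vehicle and 3.45 (SE 0.81, adjusted p = 0.0145) in NSC on the log2 scale. Without NSC replicate 1 the NSC rise was 2.21 (adjusted p = 0.0111), and its call was lost without baseline replicate 1 or 3 (adjusted p = 0.0519 and 0.0598). *Tm6sf2*, which helps to lipidate VLDL, rose in vehicle (0.58, adjusted p = 0.0211) and was at -0.12 in NSC (adjusted p = 0.604), with a difference between NSC and vehicle of -0.70 (SE 0.16, adjusted p = 0.0849). Its vehicle call was lost without baseline replicate 1 or 2 or vehicle replicate 1 or 2 (adjusted p = 0.0625 to 0.0805). *Apoe* fell in both (-1.12 and -1.53, adjusted p = 0.00274 and 0.000325), and *Apoc3*, an inhibitor of lipoprotein lipase, passed in NSC (-0.67, adjusted p = 0.0119, or 0.0574 with the GC correction) and not in vehicle (-0.26, adjusted p = 0.314).

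Among 12 lipid-sensing nuclear receptors and coactivators, 7 fell in vehicle remnants and 8 in NSC, 0 rose, and the medians were -0.98 and -0.96. Without vehicle replicate 1 or 3 the vehicle count was 4, when 15.4% and 16.3% of all genes passed. *Pparg*, the receptor that drives fat storage genes in adipocytes and fatty liver, was at 14.8, 13.4 and 16.2 CPM at baseline, at 8.23, 6.09 and 6.496 in vehicle and at 8.999, 11.1 and 9.94 in NSC remnants. Its log2 fold change was -1.09 in vehicle and -0.56 in NSC (adjusted p = 0.00121 and 0.0249), and the difference between NSC and vehicle was 0.53 (SE 0.17, adjusted p = 0.148). The NSC call of *Pparg* was lost with library size only (adjusted p = 0.106) and without baseline replicate 1 or 3 or NSC replicate 1 (adjusted p = 0.0618, 0.109 and 0.0584). *Mlxipl*, the carbohydrate-sensing factor ChREBP, fell (-0.99 and -1.64, adjusted p = 0.0112 and 0.000518), as did the coactivator *Ppargc1b* (-2.34 and -2.47, adjusted p = 0.00404 and 0.00226) and the xenobiotic receptor *Nr1i2* (-0.87 and -0.95, adjusted p = 0.00614 and 0.00252). The vehicle call of *Mlxipl* was lost without vehicle replicate 1 or 3 (adjusted p = 0.0517 and 0.0502). Of 16 PPAR-alpha and fasting targets 1 fell in vehicle (6.25%) and 2 in NSC (12.5%), counts that varied as libraries were left out. In vehicle they ran from 0 (without any 1 of the 3 baselines or vehicle replicate 2 or 3) to 3 (without vehicle or NSC replicate 1). Of all genes 14.8% to 18.9% passed in the fits that gave 0, and 15.4% and 29.5% in those that gave 3. In NSC the counts ran from 1 (without any 1 of the 3 baselines or NSC replicate 3) to 7 without NSC replicate 1 (43.8%, when 33.7% of all genes passed). In the fits that gave 1, 23.4% to 33.6% of all genes passed. *Creb3l3*, a liver factor of fasting lipid metabolism, was among those that fell in NSC (-0.70, adjusted p = 0.0119), but not with library size only (adjusted p = 0.0568) or the GC correction (adjusted p = 0.102).

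**Figure D5:**
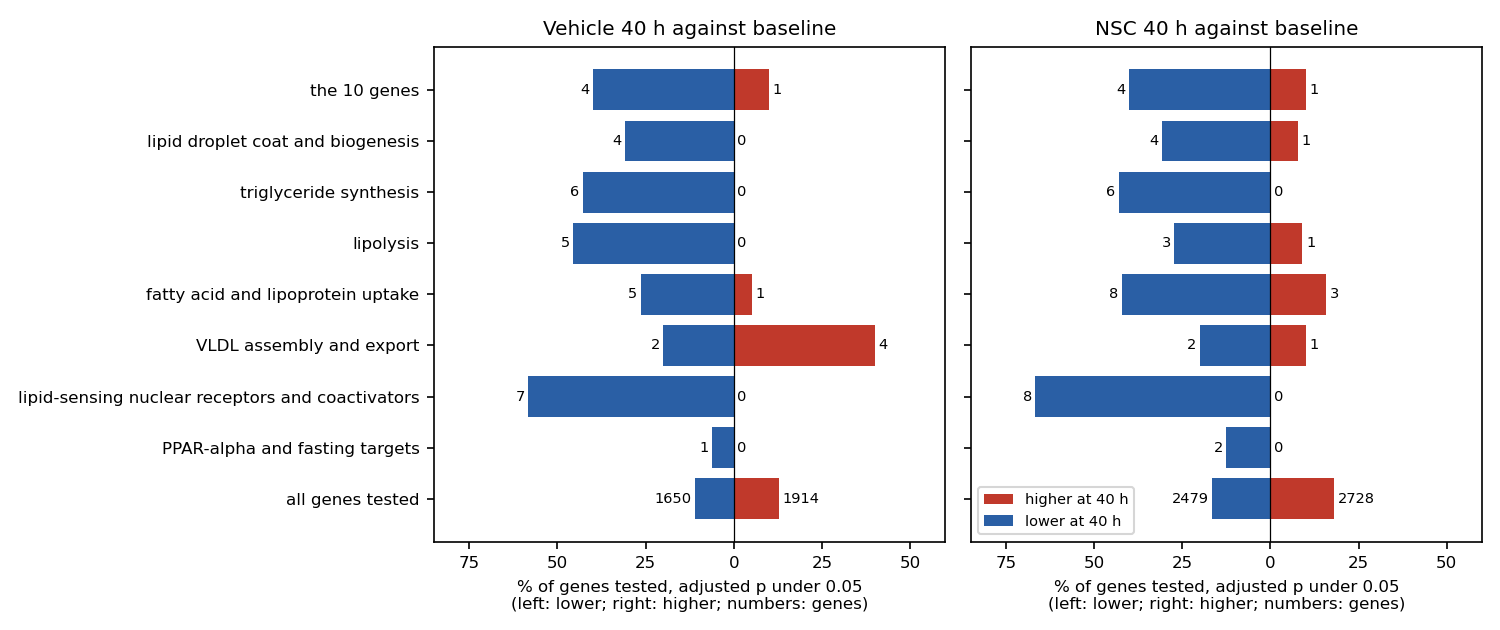
Percent of the genes tested in each list that were higher (right) or lower (left) at 40 h than at baseline at an adjusted p under 0.05, with the number of genes at each bar end, for vehicle (left panel) and NSC (right panel). The top bar is that of the 10 genes, followed by 7 other lists, and the bottom bar is that of all 15024 genes tested, of which 12.7% were higher and 11% lower in vehicle.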

How the data were processed

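RNA-Seq of whole mouse liver, 9 libraries in 3 groups of 3, was analysed. Libraries were made with a stranded polyadenylated RNA kit, and no source says if baseline and remnant libraries of equal number share a mouse. Reads, paired-end, were aligned by the authors with STAR 2.6.1 and counted on genes with featureCounts of Subread 1.5.1, and the raw count per gene was deposited without normalization. The deposited FPKM values are those counts scaled by library total and gene length. The sources name the human build hg38, but the identifiers are mouse ones, and 33460 of 43346 genes (8 of the 10 studied, not *Cidea* or *Cd36*) had the coordinates of mouse GENCODE M21 on GRCm38.

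Counts were tested in R 4.3.3 with edgeR 4.0.16 (TMM factors, filterByExpr, robust quasi-likelihood fit of all 9 libraries with group as the only term), with Benjamini-Hochberg adjustment over 15024 genes. Log2 CPM used a prior count of 2. Intervals are 95% and unadjusted, and the p-values of edgeR set a group difference against the spread between these livers. The *G0s2* to *Pnpla2* ratio (FPKM + 0.1) was compared by exact permutation. The fit was tested on counts simulated from its own means and spreads, which cannot show how it handles livers that stand apart. Replicates differed by chi-square values of 22.9 to 140 a gene, and so were separate libraries. Motifs were searched as written, on both strands, in RefSeq promoters. The fold threshold of 1.5 on the log2 scale is that of the study.

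The 10 genes and all lists were chosen with earlier results of these data known. Pathway genes named were the up to 4 per list with the smallest adjusted p in either comparison with baseline, of which 2 are not reported here. Alternatives were DESeq2 1.42.0, RLE size factors, unscaled library totals, a filter of 1 count or of 10 counts in each library, fits of 2 groups, a replicate block and each library left out. The GC correction (a loess curve of span 0.5 per library, limma 3.58.1 loaded with edgeR) was added after the data were seen and covered 99.2% of genes tested. Columns and plots were handled in Python 3.11.15.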

Additional observations from a re-analysis of the deposited data

How the results depend on the processing

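The fall of *Plin4* in both comparisons with baseline, and those of *Pnpla2* and *Vldlr* and the rise of *Fabp4* in NSC, passed in all 17 alternatives. The 5 vehicle calls became 3 with library size only, 3 with all genes of at least 1 count, 2 with the fold threshold, and 1 to 5 with 1 library left out (2 without baseline replicate 1 or 3 or vehicle replicate 1, 3 without baseline replicate 2, 1 without vehicle replicate 2 or 3). Over all genes the share passing in vehicle went from 23.7% to 22.5% with library size only and 14.2% with all genes of at least 1 count. That share was 14.8% to 18.9% without 1 baseline or vehicle liver and 21.8% to 29.5% without 1 NSC liver. The 5 NSC calls became 3 with the fold threshold and stayed at 5 with any library left out. In the fits with a library left out 23.4% to 33.9% of all genes passed in NSC. For NSC against vehicle the count went from 0 to 0 to 2 with a library left out (2 without NSC replicate 1). At the fold threshold the 2 vehicle calls became 1 to 2. Pathway calls between NSC and vehicle went from 0 to 8 with DESeq2, 3 with all genes of at least 1 count and 0 to 10 with a library left out (2 without vehicle replicate 3, 10 without NSC replicate 1). Over all genes that comparison called 6, 667 by DESeq2 and 994 without NSC replicate 1. The cause of these shifts was not tested. With a library left out, log2 fold changes crossed 0 as follows. Against baseline, *Plin2* ran from -0.10 to 0.38 in vehicle and -0.15 to 0.50 in NSC, *Cidec* from -1.92 to 0.041 and -0.74 to 0.58, and *G0s2* from -0.59 to 0.57 in NSC. From vehicle to NSC, *Plin2* ran from -0.33 to 0.34, *Plin5* from -0.43 to 0.022, *Cidea* from -0.92 to 0.89, *Cidec* from -0.37 to 2.13, *Vldlr* from -1.47 to 0.10, *Fabp4* from -0.47 to 0.54, *Acsl1* from -0.051 to 0.29, *Lipc* from -0.16 to 0.17, *Fitm1* from -0.011 to 0.59, *Ppargc1b* from -0.41 to 0.31, *Nr1i2* from -0.26 to 0.058 and *Gpam* from -0.35 to 0.12. The *G0s2* to *Pnpla2* difference in vehicle ran from -0.79 to 0.59. With the GC correction, the sign turned between NSC and vehicle for *Plin5* (0.13), *Fabp4* (-0.023), *Acsl1* (-0.010), *Rab18* (-0.036), *Ppargc1b* (0.22) and *Nr1i2* (0.10), and in NSC against baseline for *Rab18* (-0.021) and *Tm6sf2* (0.10). Library size only turned *Tm6sf2* in NSC against baseline (0.028) and *Nr1i2* between NSC and vehicle (0.031). *Cidea* was left out by the filter of at least 10 counts.

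No source ties libraries of equal replicate number to a mouse or batch, and they were not treated as pairs. Their deviations from the group means correlated at -0.05 to 0.13, with 1 of 9 pairs over 0.1. With 3 livers a group, such low values cannot settle whether libraries of equal number share a source. The own number nevertheless correlated best of 3 in 13 of 18 cases. These cases use each correlation from both sides and are not independent, so they give at most a hint that some numbers may share a source. Vehicle and NSC libraries come from different mice, so for them that source cannot be a mouse. With the replicate block 5, 6 and 0 of the 10 genes passed, when 23.8%, 34.5% and 0.0732% of all genes did. *Cd36* was added in NSC against baseline (0.69, adjusted p = 0.0327), and in that comparison *Cidec* was at -0.36 and *G0s2* at -0.41. The gene that depth limited most was *Cidea*, with 2 to 38 counts per library.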
